A study of Mus musculus with 18 samples.

Results

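Cyclins and cyclin-dependent kinases were followed as 10 genes of the 54281 in the deposited count table: the D cyclins Ccnd1, Ccnd2 and Ccnd3, the E cyclins Ccne1 and Ccne2, the A cyclin Ccna2, the B cyclins Ccnb1 and Ccnb2, and the kinases Cdk1 and Cdk2. They were found by matching gene IDs, without the version, to these symbols in the GENCODE M21 annotation, and all 10 were present and passed the filter on low counts. RNA sequencing covered 18 mouse libraries in 9 groups of 2. The cortex groups were cerebral cortex of male C57BL/6J mice labelled Mcph1KO and of wild-type (WT) male C57BL/6J mice, each at the embryonic stage E17.5, the postnatal stage P4 and 2 older stages with the labels A6w and A18w. The last group, mESC_WT, was the wild-type mouse embryonic stem cell line R1. The kind of Mcph1 allele is not given in the sources used here, and R1 is 1 cell line. The labels do not say whether the 2 libraries of a group came from separate animals or cultures, so the p-values measure the spread between these libraries, which may be technical.

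Cyclins are the regulatory subunits that switch on cyclin-dependent kinases. D cyclins act with Cdk4 and Cdk6 in G1, where they relay growth signals by phosphorylating the retinoblastoma protein. E cyclins act with Cdk2 at the entry into S phase, cyclin A2 acts with Cdk2 and Cdk1 in S and G2, and B cyclins act with Cdk1 in mitosis. In the embryonic cortex dividing cells line the ventricle, and most neurons leave the cycle before birth, while glial precursors go on dividing after it.

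Library totals ran from 23531045 to 32041849 counts. Summed markers of cortical projection neurons reached 1189 to 2839 CPM (counts scaled to a common library size) in cortex libraries and 6.77 to 24.2 CPM in stem cells, while summed pluripotency markers reached 6538 to 6544 CPM in stem cells and at most 3.31 CPM in cortex. Markers of neighbouring tissue varied between cortex libraries, from 2.02 to 894.5 CPM for choroid plexus, from 43.15 to 1292 CPM for striatum and from 7.84 to 205 CPM for thalamus. Mcph1 itself showed no fall with the label Mcph1KO: averaged over the stages its log2 difference from WT was 0.44 ± 0.095 (standard error, adjusted p = 0.368, edgeR). The genotype is therefore given as labelled throughout.

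Promoter sequences are shown first for the mitotic genes Ccnb1, Ccnb2 and Cdk1, whose levels moved together over the stages, and for Ccne1, whose levels took another course. Each is the 150 bases before the RefSeq transcription start (GRCm38.p6), read 5′ to 3′ on the strand of the gene, with motif matches in capitals. The windows are chr13:100786487-100786636 (minus strand) for Ccnb1, chr9:70421555-70421704 (minus) for Ccnb2, chr10:69352913-69353062 (minus) for Cdk1 and chr7:38107491-38107640 (minus) for Ccne1.
Ccnb1: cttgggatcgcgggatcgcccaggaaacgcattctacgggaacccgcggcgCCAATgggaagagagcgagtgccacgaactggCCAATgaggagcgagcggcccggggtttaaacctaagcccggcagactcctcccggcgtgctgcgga
Ccnb2: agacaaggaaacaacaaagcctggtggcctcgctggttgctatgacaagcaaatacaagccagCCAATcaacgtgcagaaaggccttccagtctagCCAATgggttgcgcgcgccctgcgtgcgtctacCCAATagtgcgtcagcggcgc
Cdk1: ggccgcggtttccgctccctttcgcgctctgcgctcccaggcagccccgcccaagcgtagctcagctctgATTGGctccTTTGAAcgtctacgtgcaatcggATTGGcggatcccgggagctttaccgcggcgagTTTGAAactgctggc
Ccne1: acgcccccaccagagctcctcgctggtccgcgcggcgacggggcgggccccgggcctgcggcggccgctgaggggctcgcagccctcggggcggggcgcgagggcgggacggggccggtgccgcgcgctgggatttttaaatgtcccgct

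The capitals mark CCAAT, the box bound by NF-Y, and TTTGAA, a form of the cell cycle genes homology region (CHR). Both were searched on either strand, so that ATTGG is CCAAT on the other strand. Other forms of the CHR were not searched. TTTCCCGC and TTTGGCGC, forms of the E2F site, were searched in the same way, and no match overlapped another. Ccnb2 held 3 CCAAT boxes, starting 87, 54 and 21 bases before the transcription start. Ccnb1 held 2, starting 99 and 67 bases before it, and Cdk1 held 2 CCAAT boxes on the other strand and 2 TTTGAA elements. Of 32817 promoter windows of this length, 24.5% held CCAAT at least once, 6.01% held it 2 or more times, and 9.07% held TTTGAA. Ccne1 held none of the forms searched. RefSeq promoters matched 6 of the 10 genes, the others of these being Cdk2 and Ccnd3 (not Ccnd1, Ccnd2, Ccne2 or Ccna2). Cdk2 held 1 CCAAT box and 1 TTTCCCGC, an E2F form that with TTTGGCGC occurred in 0.868% of all windows, and 1 of the 2 Ccnd3 promoters held 1 CCAAT box.

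**Figure D1:**
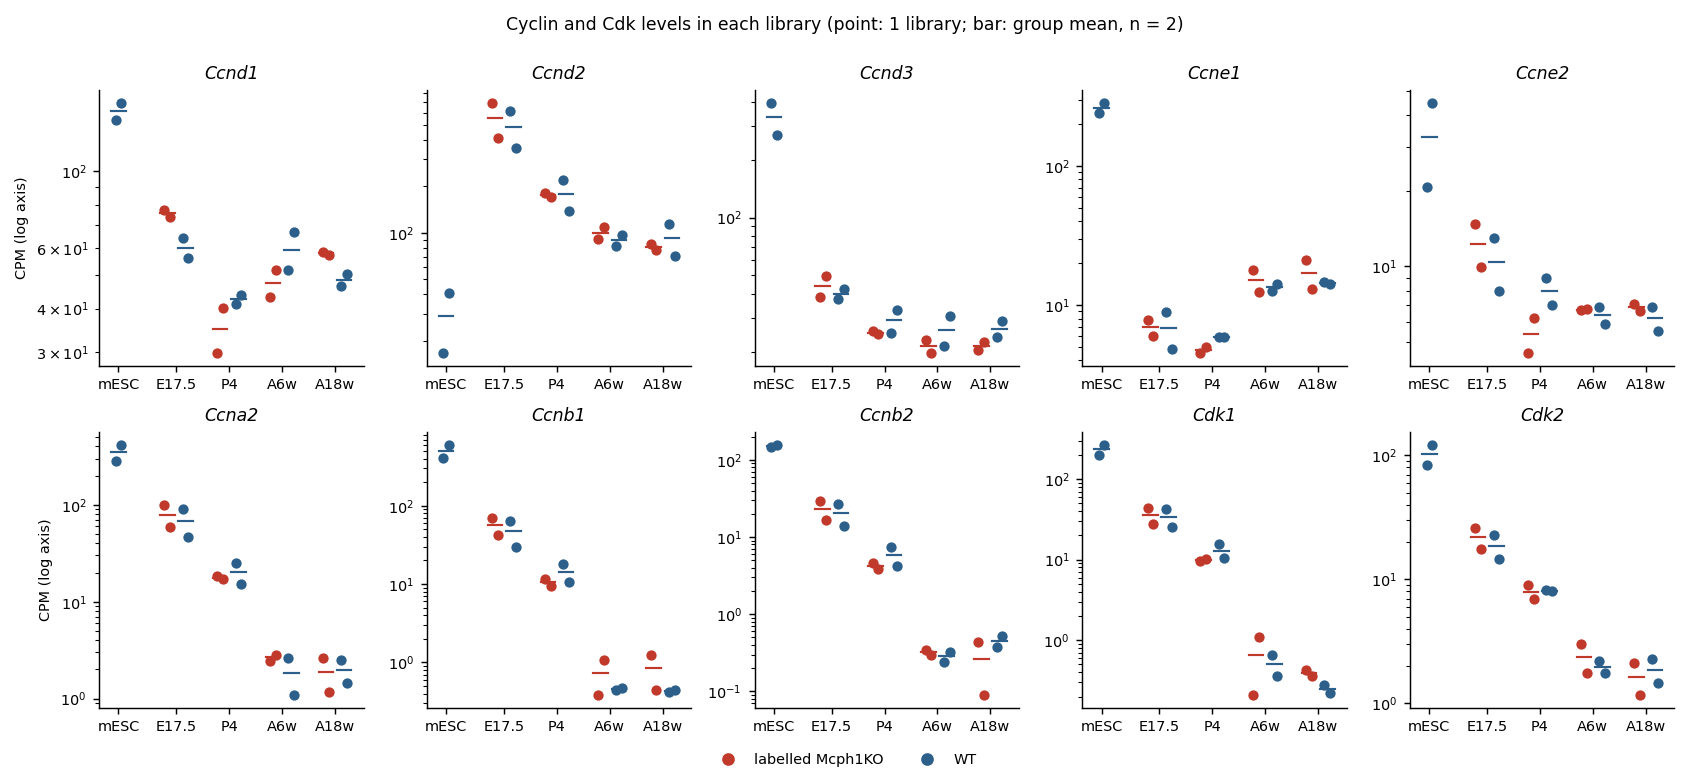
Level of each gene in every library (CPM, log axis, a separate range in each panel) in stem cells and over the cortex stages, libraries labelled Mcph1KO in red and WT in blue. Points are libraries and bars are group means (n = 2). Ccna2, Ccnb1, Ccnb2 and Cdk1 drop to at most 2.84 CPM at A6w and A18w, while Ccne1 lies higher there than at P4 and Ccnd2 alone is lowest in stem cells.

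Between E17.5 and P4 nearly all of the family declined: 9 of the 10 genes fell (edgeR quasi-likelihood test with Benjamini-Hochberg adjustment over 19199 genes, call at an adjusted p under 0.05, 4 libraries a stage, both genotypes averaged). In this comparison 17.9% of all genes tested were called lower and 18.9% higher, and the median log2 change was -1.42 over the 10 genes and 0.03 over all genes. The B and A cyclins and Cdk1 had the largest falls, and Ccne1 was the one gene not called. Within the labels, at 2 libraries a stage, 9 of 10 fell in libraries labelled Mcph1KO (8.55% of all genes called lower) and 6 of 10 in WT (8.59%). In WT Ccnd1 (-0.49 ± 0.17, adjusted p = 0.0627, edgeR), Ccnd3 (-0.45 ± 0.21, adjusted p = 0.146, edgeR) and Ccne2 (-0.38 ± 0.29, adjusted p = 0.385, edgeR) also missed the threshold, where the changes labelled Mcph1KO were -1.10 ± 0.17, -0.79 ± 0.21 and -1.19 ± 0.29. The test of the difference between the 2 steps called no member (adjusted p = 1 for each, edgeR), and Ccnd1 was the 1 member with an unadjusted p under 0.05 in it. Of all genes 0% were called in that test, and 575 had an unadjusted p under 0.05. Levels are CPM scaled over all 18 libraries, and changes are log2 fold changes ± standard error. In bulk tissue, fewer dividing cells and less RNA per cell cannot be told apart.

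Ccnd2 (chr6:127125162-127152193, minus strand) encodes the D cyclin typical of cortical progenitors. Its level was 182 and 171 CPM in the P4 libraries labelled Mcph1KO and 219 and 139.6 CPM in P4 WT, against 695 and 408 CPM labelled Mcph1KO and 615 and 353 CPM in WT at E17.5. The 4 P4 libraries all lay below the 4 E17.5 libraries, with no overlap. The change was -1.52 ± 0.23 (adjusted p = 0.000363, edgeR). Ccnd1 (chr7:144929931-144939925, minus strand), the D cyclin best known as a target of mitogen signals, had 29.7 to 43.9 CPM at P4, against 55.9 to 77.0 CPM at E17.5, a change of -0.79 ± 0.12 (adjusted p = 0.000365, edgeR). Ccnd3 (chr17:47505051-47599691, plus strand), the third D cyclin, had 24.9 to 33.1 CPM at P4, against 37.6 to 49.5 CPM at E17.5, and fell by 0.62 ± 0.15 (adjusted p = 0.00542, edgeR). Neither gene's ranges overlapped between the stages.

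Of the E cyclins, the S phase entry partners of Cdk2, Ccne2 fell and Ccne1 was not called. Ccne2 (chr4:11191351-11204779, plus strand) had 4.52 to 8.99 CPM at P4, against 7.98 to 14.7 CPM at E17.5, and fell by 0.78 ± 0.21 (adjusted p = 0.0101, edgeR), with overlapping ranges. That call was lost without the E17.5 WT library numbered 1 (adjusted p = 0.0631, change -0.60), without the one labelled Mcph1KO (0.0535, change -0.63) and without both (0.188, change -0.45). Ccne1 (chr7:38097984-38107534, minus strand) had 4.52 to 5.94 CPM at P4, against 4.86 to 8.90 CPM at E17.5, a change of -0.37 ± 0.22 (adjusted p = 0.209, edgeR).

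The mitotic genes went down furthest. Ccnb1 (chr13:100778650-100786570, minus strand) had 11.7 and 9.34 CPM in P4 libraries labelled Mcph1KO and 18.2 and 10.6 CPM in P4 WT, against 70.1 and 41.8 CPM labelled Mcph1KO and 64.1 and 29.95 CPM in WT at E17.5. Every P4 library was below every E17.5 library, and the change was -2.04 ± 0.32 (adjusted p = 0.000457, edgeR). Ccnb2 (chr9:70407692-70421547, minus strand), the second B cyclin, had 3.89 to 7.52 CPM at P4, against 13.9 to 28.9 CPM at E17.5, and fell by 2.10 ± 0.32 (adjusted p = 0.000367, edgeR). Ccna2 (chr3:36564865-36572150, minus strand) had 15.3 to 25.3 CPM at P4, against 46.9 to 98.8 CPM at E17.5, and fell by 1.94 ± 0.31 (adjusted p = 0.000513, edgeR). The pseudogene Ccnb2-ps had 3.09 to 8.52 CPM at P4 and 6.75 to 10.27 CPM at E17.5, so the level of Ccnb2 is uncertain where reads fit both. For Ccnb2 and Ccna2 the stages did not overlap. Cdk1 (chr10:69335146-69352938, minus strand), the kinase that these cyclins activate for mitosis, had 9.62 and 10.2 CPM in P4 libraries labelled Mcph1KO and 15.4 and 10.5 CPM in P4 WT, against 43.9 and 27.8 CPM labelled Mcph1KO and 42.2 and 25.6 CPM in WT at E17.5. The stages did not overlap, and the change was -1.61 ± 0.31 (adjusted p = 0.00154, edgeR). Cdk2 (chr10:128697939-128705031, minus strand), the partner of the E cyclins, had 6.88 to 8.97 CPM at P4, against 14.5 to 25.9 CPM at E17.5, and fell by 1.31 ± 0.25 (adjusted p = 0.00158, edgeR).

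**Figure D2:**
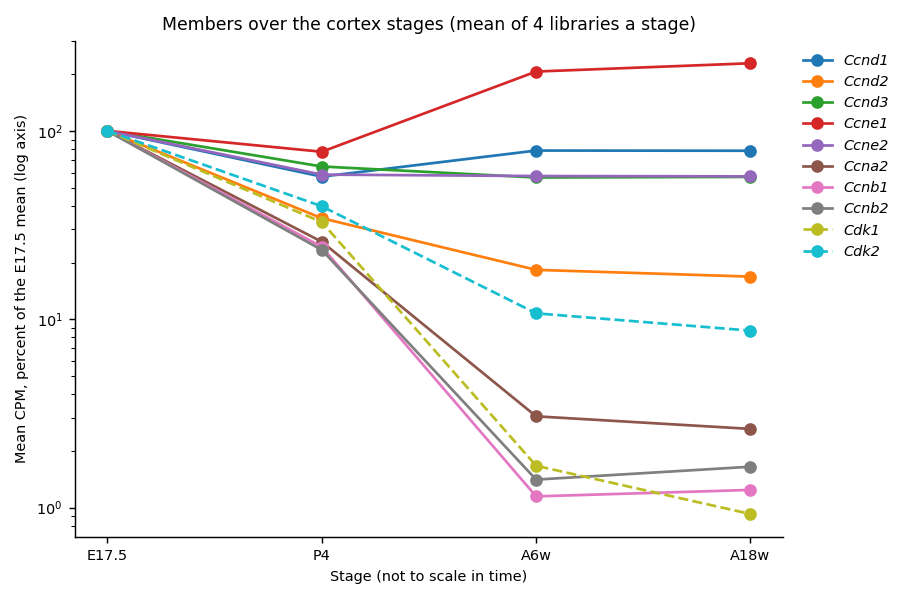
Mean level of each gene at each cortex stage as a percent of its E17.5 mean (log axis, 4 libraries a stage, cyclins solid and kinases dashed). At A6w the lines spread from 1.15% for Ccnb1 to 207% for Ccne1, and at A18w the order is the same except for Cdk1, which is lowest there at 0.925%.

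From P4 to A6w the family split. Of the 10 genes 6 fell, where 27.8% of all genes tested were called lower, and 2 rose, where 27.3% were called higher (edgeR, adjusted p under 0.05). The mitotic genes fell to a few percent of their E17.5 means: 3.05% for Ccna2, 1.67% for Cdk1, 1.41% for Ccnb2 and 1.15% for Ccnb1. Ccnd2 and Cdk2 fell less, to 18.3% and 10.8%. Ccnd1 and Ccne1 rose, and Ccnd3 and Ccne2 were not called. Within the labels 5 fell in libraries labelled Mcph1KO (19.2% of all genes called lower) and 6 in WT (20.3%), and Ccne1 was the 1 gene that rose under each label (20.3% of all genes called higher labelled Mcph1KO and 21.2% in WT).

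Ccnb1 had 0.383 and 1.06 CPM in A6w libraries labelled Mcph1KO and 0.447 and 0.472 CPM in A6w WT, against 9.34 to 18.2 CPM over the 4 P4 libraries. The groups lay far apart, and the change was -4.46 ± 0.40 (adjusted p = 1.12e-06, edgeR). At A6w Cdk1 had 0.209 to 1.10 CPM, Ccnb2 0.244 to 0.348 CPM and Ccna2 1.09 to 2.84 CPM, each below all 4 P4 libraries. Their changes were -4.35 ± 0.38 for Cdk1, -4.04 ± 0.40 for Ccnb2 and -3.14 ± 0.35 for Ccna2 (adjusted p = 8.65e-07, 2.31e-06 and 6.51e-06, edgeR). Few counts stood behind these levels: over the 8 libraries of A6w and A18w there were 26 to 71 counts for Ccna2, 9 to 29 for Ccnb1, 5 to 26 for Cdk1 and 2 to 12 for Ccnb2. The pseudogene Ccnb2-ps had 1.53 to 3.63 CPM in the same 8 libraries, above the 0.0897 to 0.528 CPM of Ccnb2, so the level of Ccnb2 there is uncertain where reads fit both. Cdk2 had 1.74 to 2.99 CPM at A6w, against 6.88 to 8.97 CPM at P4, a change of -1.92 ± 0.27 (adjusted p = 4.71e-05, edgeR).

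Ccne1 had 17.9 and 12.4 CPM in A6w libraries labelled Mcph1KO and 12.7 and 14.1 CPM in A6w WT, against 4.52 and 5.03 CPM labelled Mcph1KO and 5.94 and 5.90 CPM in WT at P4. All 4 A6w libraries were above all 4 P4 libraries and also above the 4.86 to 8.90 CPM of E17.5. The rise was 1.39 ± 0.22 (adjusted p = 0.000152, edgeR). Cyclin E1 is known from mouse neurons that no longer divide, where it binds Cdk5. Ccnd1 had 43.2 to 66.5 CPM at A6w, against 29.7 to 43.9 CPM at P4, and rose by 0.43 ± 0.12 (adjusted p = 0.00821, edgeR), with a small overlap of the ranges. Ccnd2 had 82.2 to 108 CPM at A6w, against 139.6 to 219 CPM at P4, and fell by 0.95 ± 0.23 (adjusted p = 0.00334, edgeR). For Ccnd3 the change was -0.22 ± 0.15 (adjusted p = 0.21, edgeR) and for Ccne2 it was -0.03 ± 0.21 (adjusted p = 0.921, edgeR).

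Between A6w and A18w no gene of the 10 was called, and none had an unadjusted p under 0.05 (edgeR; DESeq2 called 0 as well). Of all genes tested 0.0313% were called lower and 0.104% higher. Log2 changes ran from -0.84 ± 0.49 for Cdk1 to 0.17 ± 0.48 for Ccnb2. For the D and E cyclins the standard errors were 0.12 to 0.23, so changes of that size would not be seen. Of 4 striatum markers 2 were higher at A18w, with sums of 255.5 to 1292 CPM, against 89.15 to 188.6 CPM at A6w, and their part in these values was not tested.

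**Figure D3:**
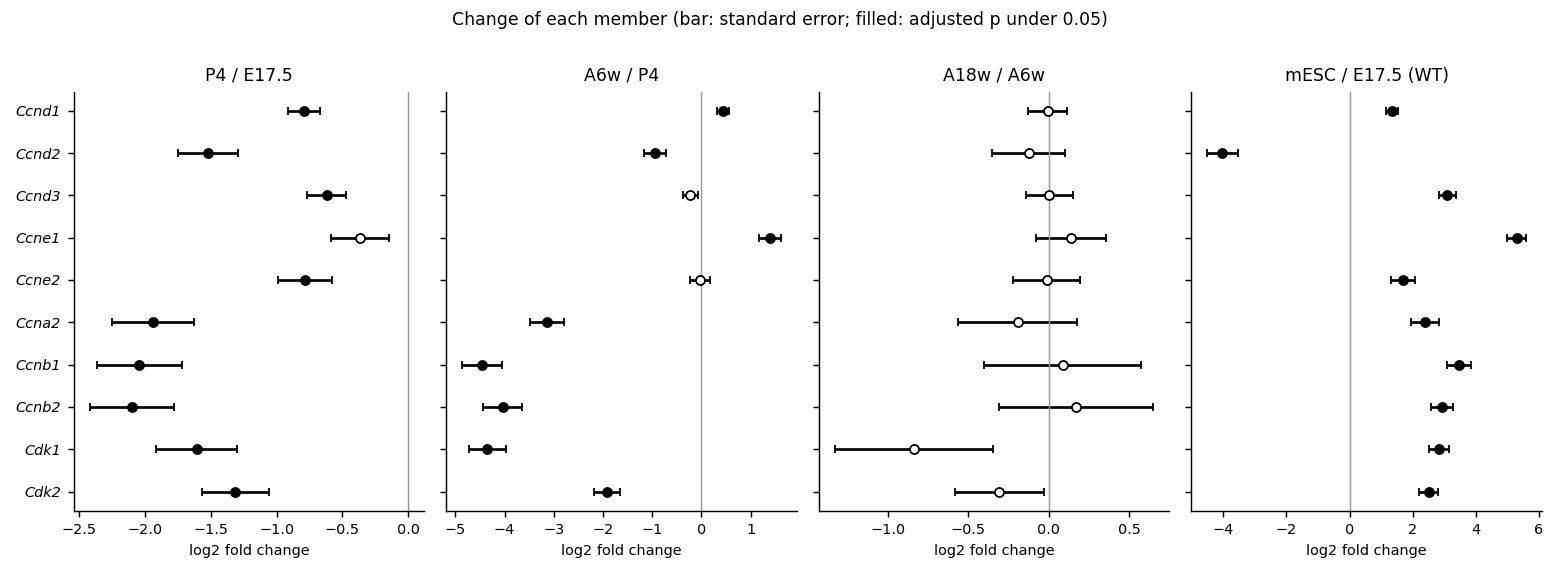
Log2 fold change of each gene at the 3 steps between cortex stages and for stem cells against E17.5 WT cortex, each panel on its own axis range. Bars are standard errors (4 libraries a stage, 2 a group for stem cells) and filled points have an adjusted p under 0.05. The mitotic genes are far below 0 at A6w against P4, where Ccne1 and Ccnd1 are above 0, and no point is filled at A18w against A6w.

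Levels per kilobase allow the D cyclins to be set against each other. With all annotated exons as the length, at E17.5 Ccnd2 stood at 55.0 ± 17.4 CPM per kilobase, Ccnd1 at 14.4 ± 2.04 and Ccnd3 at 4.79 ± 0.61 (SD, n = 4). At A6w Ccnd1 stood at 11.3 ± 2.06 and Ccnd2 at 10.1 ± 1.17, closer than their spread, with Ccnd3 at 2.71 ± 0.56. In stem cells Ccnd3 (37.9 ± 10.3, n = 2) and Ccnd1 (31.7 ± 2.60) lay above Ccnd2 (3.07 ± 1.83). With the longest coding transcript as the length, Ccnd3 came to 19.9 CPM per kilobase at E17.5 and 11.2 at A6w, near the 18.1 and 14.3 of Ccnd1. The place of Ccnd2 as the most abundant D cyclin at E17.5 (81.8 CPM per kilobase) was the same under both lengths, and the place of Ccnd3 below Ccnd1 was not. Of the E cyclins, per kilobase of exon, Ccne2 (3.26 ± 0.86) and Ccne1 (2.59 ± 0.68) were within their spread at E17.5, while at A6w Ccne1 stood at 5.35 ± 0.95 and Ccne2 at 1.88 ± 0.13.

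How the D and E cyclins and Cdk2 stood relative to the mitotic genes was measured within each library as the log2 ratio of a gene's CPM to the summed CPM of Ccna2, Ccnb1, Ccnb2 and Cdk1, with 0.1 CPM added to both. The ratio of Ccne1 averaged -3.12 ± 0.31 at P4, against -4.67 ± 0.17 at E17.5, and 1.95 ± 0.64 at A6w, against that P4 value (SD, n = 4 a stage). That of Ccnd1 averaged -0.29 ± 0.40 at P4, against -1.37 ± 0.42 at E17.5, and then 3.85 ± 0.68 at A6w. In the exact two-sided permutation test of 4 libraries against 4 these differences had p = 0.0286, the smallest it can give. Of 18 tests (6 genes, 3 steps) 11 had that p, with an adjusted p = 0.0468 over the 18 tests: 5 of 6 genes at P4 against E17.5 and 6 of 6 at A6w against P4, all toward a higher ratio, and 0 of 6 at A18w against A6w. The exception at P4 was Cdk2, whose ratio differed by 0.60 (p = 0.0571, adjusted p = 0.0857, exact permutation test). The genes of the denominator had themselves fallen, with log2 changes of -2.1 to -1.61 at P4 and -4.46 to -3.14 at A6w. A gene of unchanged level would therefore also show a higher ratio, and the median change over all genes was 0.03 and -0.06. The 11 calls show that the genes called fell less than the denominator or rose, and do not set them apart from other genes. The share of all genes with a higher ratio was not tested.

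These calls stood at the edge of the test. All 18 tests shared the same denominator, and neighbouring steps shared libraries, so the tests were not independent. The adjusted p was under 0.05 only because 11 tests tied at the smallest p, and fewer ties would leave none called. With Cdk1 alone as the denominator 0 of the 18 were called (lowest adjusted p = 0.0571, exact permutation test), and the P4 against E17.5 difference of Ccnd2 was 0.08 in place of 0.39. Leaving out any of the 4 E17.5 libraries, or the P4 libraries WT numbered 2 or labelled Mcph1KO numbered 1 or 2, also left 0 of 18 called, with the differences themselves still above 0 for all 6 genes at both steps.

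Genes that work with the cyclins were described from lists chosen with earlier results of these data known, so their counts are a description. Beside them, 17.9% of all genes were called lower and 18.9% higher at P4 against E17.5. At A6w against P4 the shares were 27.8% lower and 27.3% higher. Of the G1 kinases and inhibitors, 8 of 9 were tested; 5 fell and 0 rose at P4 against E17.5 and 5 fell and 1 rose at A6w against P4. Cdk4, the main D cyclin kinase, changed by -1.66 ± 0.20 and then -1.57 ± 0.20. The inhibitors Cdkn2c and Cdkn1b also fell at P4, by 1.21 ± 0.19 and 0.99 ± 0.16, as did Cdkn1c, by 1.09 ± 0.21. At A6w the falls of smallest adjusted p were those of Cdkn1c (-2.84 ± 0.22), Cdk6 (-2.39 ± 0.27), the second D cyclin kinase, Cdk4 and Cdkn2c (-1.33 ± 0.19).

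Of 13 Rb and E2F genes, the layer that D cyclin kinases act on, 11 fell and 0 rose at P4, among them E2f2 (-2.33 ± 0.29), E2f8 (-1.93 ± 0.32), E2f6 (-0.79 ± 0.13) and Rbl1 (-1.35 ± 0.24). At A6w against P4 the list split into 6 falls, with Rbl1 (-2.14 ± 0.26), E2f7 (-3.28 ± 0.45), E2f8 (-2.47 ± 0.36) and Rb1 (-0.90 ± 0.13) at the smallest adjusted p, and 5 rises.

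Of the 10 switches and cofactors of the kinases, 7 fell and 0 rose at P4 and 6 fell and 3 rose at A6w. Cdc25a, a phosphatase that activates Cdks, changed by -1.40 ± 0.16 and -1.19 ± 0.16, and Cks2, a small Cdk subunit, by -2.18 ± 0.39 and -2.13 ± 0.42. Cks1b, the other small subunit, fell by 1.33 ± 0.29 and then by 2.88 ± 0.33. Wee1, the kinase that inhibits Cdk1, went the other way at the second step: it fell at P4 (-1.57 ± 0.18) and rose at A6w (1.88 ± 0.19).

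Of the 8 cyclin destruction genes 6 fell and 1 rose at each step. Cdc20 and Ube2c, which drive cyclin B degradation in mitosis, changed by -2.10 ± 0.26 and -2.21 ± 0.33 at P4 and by -3.06 ± 0.29 and -4.03 ± 0.40 at A6w. The gene that rose both times, named at P4 after its values were seen, was Fbxw7, the ubiquitin ligase subunit that recognises cyclin E, by 0.65 ± 0.16 and then by 1.58 ± 0.16. Of the 7 mitotic transcription genes 4 fell and 0 rose at P4 and 4 fell and 2 rose at A6w. Foxm1 changed by -1.81 ± 0.24 and -2.72 ± 0.26, and Mybl2 by -2.03 ± 0.32 and -2.76 ± 0.36. Both are transcription factors of late cell cycle genes.

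Of the cyclins and kinases known mostly for roles outside the cycle, 23 of 24 were tested. At P4 6 fell and 4 rose, beside 17.9% and 18.9% of all genes, and at A6w 7 fell and 8 rose, beside 27.8% and 27.3% of all genes, so the counts lay near the background. The median changes were 0.05 and -0.04. The rises included Cdk18 (2.02 ± 0.33 and 3.06 ± 0.30) and Cdk5r2, an activator of the neuronal kinase Cdk5 (1.86 ± 0.31 at P4). Ccng2 (-1.27 ± 0.15) and Cdk12 (-0.90 ± 0.15) were among the falls at P4, and Cdk14 (1.61 ± 0.12), Cdk17 (0.92 ± 0.09) and Ccny (0.68 ± 0.10) were among the rises at A6w. Over all 6 lists 0 of 69 genes were called at A18w against A6w, with 5 at an unadjusted p under 0.05, and 0 in the genotype comparison averaged over stages, with 1 (edgeR). Of all 19199 genes tested, 1706 and 425 had an unadjusted p under 0.05 in these comparisons, so the list counts lay near the background.

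Markers of proliferation and of intermediate progenitors fell along with the mitotic genes, while other precursor lists went both ways. Summed proliferation markers (Mki67, Top2a, Pcna and Mcm2) were at 352 to 684 CPM at E17.5, 149.8 to 203 CPM at P4 and 42.8 to 58.3 CPM in the 8 libraries of A6w and A18w, and all 4 fell at P4 against E17.5 and at A6w against P4. Of the 4 intermediate progenitor markers 4 fell at P4 and 3 at A6w. Of 8 radial glia markers 5 fell and 1 rose at P4, and 6 fell and 2 rose at A6w. Of 6 oligodendrocyte precursor markers 6 rose at P4 (median 1.31), while at A6w 2 rose and 2 fell. Of 5 astrocyte markers 4 rose at P4 and 3 at A6w. At A6w 5 of 5 myelin markers (median 5.76) and 6 of 6 microglia markers (median 1.85) rose. Of all genes 17.9% were called lower and 18.9% higher at P4, and 27.8% lower and 27.3% higher at A6w. The A6w counts of oligodendrocyte precursor markers lay near these shares. The part of these cell types in the members' changes was not tested.

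Embryonic stem cells held far more of the family than E17.5 WT cortex, with 1 exception. In the fit of the 10 WT libraries (19466 genes) 9 of the 10 genes were higher in stem cells, where 32.7% of all genes were called higher, and Ccnd2 was lower, where 35.3% were called lower (edgeR, adjusted p under 0.05). Ccne1 stood furthest apart, at 240.0 and 285 CPM in stem cells, against 8.90 and 4.86 CPM in E17.5 WT cortex. Neither range came near the other, and the log2 difference was 5.29 ± 0.30 (adjusted p = 1.68e-07, edgeR). Ccnd2 was at 16.7 and 41.1 CPM in stem cells, against 615 and 353 CPM in E17.5 WT cortex, a difference of -4.03 ± 0.48 (adjusted p = 3.38e-05, edgeR). Stem cells were the group with the least Ccnd2 and the group with the most of every other member.

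Ccnd3 was at 396.5 and 269 CPM in stem cells, against 37.6 and 42.3 CPM in E17.5 WT cortex, a difference of 3.09 ± 0.27 (adjusted p = 3.53e-06, edgeR). Ccnd1 differed by 1.35 ± 0.19 (adjusted p = 9.54e-05, edgeR), the smallest of the rises. Ccnb1 was at 408 and 603 CPM in stem cells, against 64.1 and 29.95 CPM in E17.5 WT cortex, a difference of 3.47 ± 0.39 (adjusted p = 2.12e-05, edgeR). The other mitotic genes were higher by 2.93 ± 0.35 for Ccnb2, 2.82 ± 0.31 for Cdk1 and 2.40 ± 0.44 for Ccna2 (adjusted p = 3.19e-05, 1.77e-05 and 0.000639, edgeR). Cdk2 was higher by 2.51 ± 0.30 and Ccne2 by 1.69 ± 0.38 (adjusted p = 3.30e-05 and 0.00278, edgeR). Around the members, Cdkn2c, an inhibitor of the D cyclin kinases, was lower (-5.30 ± 0.39) and Cdkn2a was higher (7.25 ± 0.72), while Cdkn1b (-1.62 ± 0.22) and Cdkn1c (-1.95 ± 0.34) were lower. Of the 9 G1 kinases and inhibitors 2 were higher and 4 lower, and 3 were not called. Of all genes 32.7% were called higher and 35.3% lower, so these counts lay near the background. Of the Rb and E2F list 9 were higher and 2 lower, E2f4 by 2.83 ± 0.19 and Rbl2 by -1.86 ± 0.18.

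Whether the Mcph1 genotype label went with any change was asked at each stage. No member was called at any stage, averaged over stages or in the test of genotype by stage (edgeR). Of all genes tested 0.0521% were called in the averaged comparison, and 0% at each single stage and for genotype by stage. At E17.5, P4, A6w and A18w 303, 718, 763 and 326 of all genes had an unadjusted p under 0.05, and DESeq2 called 12, 22, 32 and 4. For genotype by stage these counts were 435 and 7. DESeq2 called no member either. An unadjusted p under 0.05 was found for 0 members at E17.5, P4, A6w, A18w and averaged, and for 1 in the test of genotype by stage, Ccnd1 (adjusted p = 1, edgeR). Averaged over stages the differences ran from -0.23 ± 0.29 for Ccnb2 to 0.35 ± 0.29 for Ccnb1, and that of Ccnd1 was -0.003 ± 0.08. Summed choroid plexus markers at E17.5 were at 2.68 and 415 CPM labelled Mcph1KO against 664 and 894.5 CPM in WT, and their part in the differences was not tested.

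Within stages the libraries of the 2 labels mostly overlapped. At E17.5 Ccnd1 alone did not, with 77.0 and 73.9 CPM labelled Mcph1KO against 64.1 and 55.9 CPM in WT, where 20.2% of all genes did not overlap. At P4 4 of 10 did not, where 29.6% of all genes did not: Ccnd1, Ccne1, Ccne2 and Cdk1, all lower in the libraries labelled Mcph1KO. Ccne2 was at 4.52 and 6.24 CPM labelled Mcph1KO against 8.99 and 6.99 CPM in WT. At A6w 0 of 10 failed to overlap, where 32.1% of all genes did. At A18w 4 of 10 did not overlap, where 22.8% of all genes did not: Ccnd1, Ccnb1 and Cdk1 were higher and Ccnd3 was lower in the libraries labelled Mcph1KO. Few counts stood behind 2 of these genes. Ccnb1 had 29 and 10 counts labelled Mcph1KO against 9 and 10 in WT, so only library scaling set the nearest libraries apart. Cdk1 had 10 and 8 counts labelled Mcph1KO against 6 and 5 in WT.

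All 10 members had a difference above 0 at E17.5 (median 0.20) and all 10 below 0 at P4 (median -0.29), without any being called. The share of all genes on each side of 0 is not given here. Most members moved together between libraries, with 9 of 10 higher in number 1 under both labels at E17.5. These signs are therefore not 10 separate observations. Set against the WT library of the same number, the library labelled Mcph1KO was higher in 9 of 10 genes under both numbers at E17.5 (26.2% of all genes), with Ccne1 the exception, and lower in 6 of 10 at P4 (23.9% of all genes). The labels do not say what a number marks, so this is a description and not a paired test. Leaving out 1 library, which also leaves the numbers unequal between the labels, changed the counts of members above or below 0. At E17.5 2 of 10 were above 0 without WT numbered 2, and also without Mcph1KO numbered 1. At P4 4 of 10 were above 0 without WT numbered 1 and 2 of 10 without Mcph1KO numbered 2. At A6w 8 of 10 were above 0, and at A18w 5 of 10, or 8 of 10 without WT numbered 1.

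**Figure D4:**
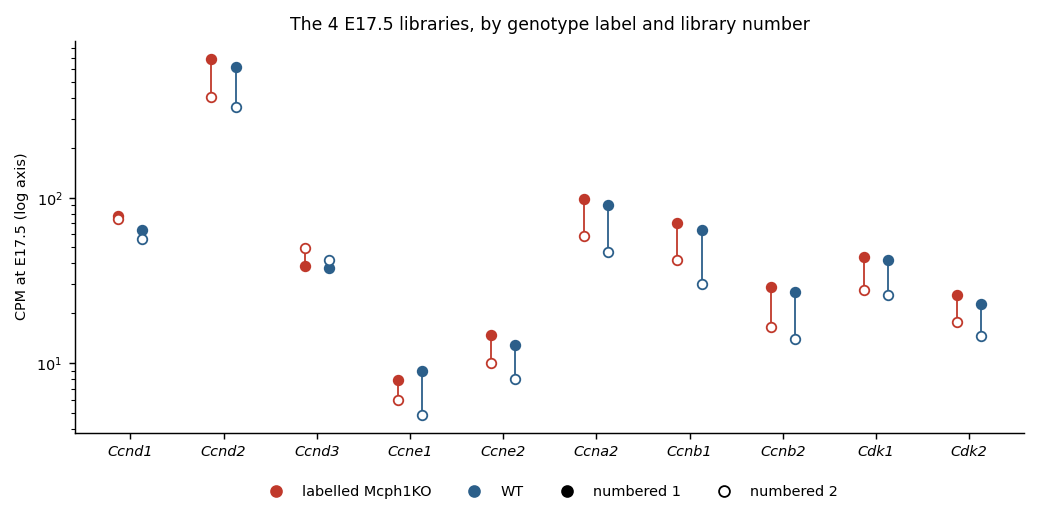
Level of each gene in the 4 E17.5 libraries (CPM, log axis), labelled Mcph1KO in red and WT in blue, with library number 1 filled and number 2 open. For every gene but Ccnd3 the library numbered 1 is the higher one under both labels, and the gap between numbers exceeds that between labels for all but Ccnd1.

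At E17.5 the levels followed the library number more than the label. In 9 of 10 genes the library numbered 1 was higher under both labels, with a median ratio of number 1 to number 2 of 1.53 labelled Mcph1KO and 1.69 in WT. Ccnb1 was highest in this respect in WT, at 2.14, and Ccnb2 labelled Mcph1KO, at 1.75. Ccnd3 went the other way, with ratios of 0.78 and 0.89. Summed proliferation markers were at 684 and 425 CPM in numbers 1 and 2 labelled Mcph1KO and at 618 and 352 CPM in WT, intermediate progenitor markers at 535.5 and 308 CPM and at 492 and 385 CPM, and thalamus markers at 30.3 and 137 CPM and at 26.8 and 200.3 CPM. Their part in the levels was not tested, and without both E17.5 libraries numbered 1, 8 members were called lower at P4, against 9 with all libraries.

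Across all 18 libraries the genes most alike in pattern to each member were found by the root mean square difference of log2 CPM centred on each gene's mean, among 13817 candidates. They are a description, since all points share libraries and scaling. Cdk1 was nearest to Top2a (0.33 log2 units), Cenpf (0.37) and Kif2c (0.40). Cdk2 was nearest to Rad51ap1 (0.22), Mcm7 (0.30) and Nuf2 (0.32), and Ccnd2 to Pax6 (0.33), Kpna2 (0.35) and Fzd8 (0.37). Ccnd1 was nearest to Ints12 (0.18), Zswim3 (0.18) and Ccdc117 (0.19), and Ccnd3 to Noc3l (0.26), Sirt1 (0.26) and Urb2 (0.27). Ccne1 was nearest to Polr3g (0.34), Lactb2 (0.36) and Cth (0.42).

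Some of the counts may hold reads of neighbouring genes, since the strand setting of the counting is not given in the sources used here. Ccnd1 overlaps LTO1, Ccnd2 the antisense genes Gm43126 and 9330179D12Rik, Ccnd3 Bysl, Ccne2 Ints8, Ccna2 Exosc9 and Cdk2 Pmel, each on the opposite strand. Mean counts over all 18 libraries were 926 for Ints8 and 282 for Ccne2, and 1111 for Bysl and 1593 for Ccnd3. They were 929 for Exosc9 and 1607 for Ccna2, and 27.2 for Pmel and 490 for Cdk2. Over the 8 libraries of A6w and A18w Ccna2 had 26 to 71 counts and Cdk2 26 to 86. Reads of a neighbour would weigh more on those low levels, and their part was not tested.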

How the data were processed

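The authors' deposited table holds expected counts per gene in 18 libraries of bulk RNA sequencing. FastQC, Trimmomatic 0.39 and Salmon 1.4.0 and the builds GRCm38.p6 and mm10 are named in the submitters' processing notes; how transcripts were summed to genes, and the strand setting, are not given in the sources used here. All columns matched a sample, and 54107 of 54281 gene IDs a GENCODE M21 symbol. Totals ran from 23531045 to 32041849 counts, so a gene at 1 CPM rests on few counts.

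The deposited counts were whole numbers and were tested as given in edgeR 4.0.16 (R 4.3.3, limma 3.58.1). The filter was filterByExpr with a minimum count of 10 and total of 15, followed by TMM factors and group means. The quasi-likelihood test was adjusted by Benjamini-Hochberg and called under 0.05. A fit held the 16 cortex libraries (19199 genes) and another the 10 WT libraries, for stem cells (19466 genes). CPM used TMM factors over all 18 libraries. Ratios were tested by exact permutation. The scripts were tested on simulated data.

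All 10 members were named in each comparison, and of each other list up to 4 called genes of smallest adjusted p. Members and lists were chosen with earlier results of these data known. Alternatives were DESeq2 1.42.0, relative log expression and upper quartile factors, no filter, other sets of libraries, a replicate block, each library left out, and, for ratios, Cdk1 alone and a pseudocount of 1 CPM. Python 3.11.15 with numpy 2.4.6, pandas 2.3.3 and matplotlib 3.10.9 made the ratios and figures.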

Additional observations from a re-analysis of the deposited data

Results flagged for a closer look

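The label difference of Ccnd1 took opposite directions at different stages, with no overlap of the libraries in either. At P4 the Ccnd1 difference was -0.28 ± 0.17 and at E17.5 it was 0.33 ± 0.17 (log2, libraries labelled Mcph1KO minus WT), so that P4 minus E17.5 was -0.612. At A18w it was 0.25 ± 0.17, and A18w minus P4 was 0.528. At A6w, where the libraries overlapped, it was -0.31 ± 0.17. The P4 difference was -0.087 without the library labelled Mcph1KO numbered 1 and -0.505 without number 2, and the A6w difference was -0.109 without WT numbered 2 and -0.483 without WT numbered 1. The test of genotype by stage had an unadjusted p under 0.05 for Ccnd1, and an adjusted p = 1 over all genes (edgeR).

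Cdk1 was lower in both P4 libraries labelled Mcph1KO (-0.38 ± 0.43) and higher in both at A18w (0.64 ± 0.77), so that A18w minus P4 was 1.026, on 5 to 10 counts per library at A18w. The P4 difference was -0.053 without WT numbered 1 and -0.654 without WT numbered 2. Its test of genotype by stage had an unadjusted p = 0.622 and an adjusted p = 1 (edgeR).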

How the results depend on the processing

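The counts of members called stayed within 1.5 times the reported count in all 232 alternatives, and of 1127 single values 1018 kept direction and side of the threshold, 92 lost and 2 gained a call and 15 changed sign. Counts over all genes moved more. With no filter on low counts 598 genes were called at A18w against A6w, and for genotype 105 at E17.5, 225 at P4, 262 at A6w, 107 at A18w, 124 averaged and 466 by stage. DESeq2 called 234 at A18w against A6w, 12, 22, 32 and 4 for genotype at the stages in order, 32 averaged and 7 by stage. With the replicate number as a block the counts in the same order were 74, then 7, 5, 4 and 4, 16 averaged and 9 by stage; same-numbered libraries correlated in their deviations at 0.478 (E17.5), 0.209 (P4), 0.0829 (A6w) and 0.295 (A18w); that was over 0.1 at 3 of the 4 stages, and the labels do not say what a number marks, so the number was not taken as a pairing. With only the libraries compared 0 genes were called at A18w against A6w and 1 for genotype at P4. Without both E17.5 libraries numbered 1, 2898 were called at P4 against E17.5 (7062 with all), 11 at A18w against A6w, 1 for genotype at P4 and 1 averaged. Leaving out each library gave 4476 to 7296 at P4 against E17.5, 2 to 93 at A18w against A6w, for genotype 0 to 1 at P4, 0 to 4 at A6w, 0 to 2 at A18w, 6 to 11 averaged and 0 to 2 by stage, and 0 to 11 of 18 ratio tests; Cdk1 alone gave 0. The sign changes were all of values not called. A6w against P4 of Ccne2 was 0.002 with all 18 libraries, 0.006 without both E17.5 libraries numbered 1 and -0.13 to 0.096 over left-out libraries. At A18w against A6w the ratio of Cdk2 was 0.227 with Cdk1 alone and -0.384 to 0.074 over left-out libraries, that of Ccnd1 -0.023 to 0.529, Ccnd2 -0.082 to 0.287, Ccnd3 -0.055 to 0.56 and Ccne2 -0.01 to 0.349. The cause of these moves was not tested. At A18w Cdk1 had no genotype value with only the libraries compared, since it was below the filter of that fit. With 2 libraries a group and mitotic gene counts at A6w and A18w as low as 2, small differences were not detectable at this depth.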
